A study of Rattus norvegicus with 6 samples.

Results

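The serpins are a family of protease inhibitors with a shared fold. This account covers the 42 genes of the rat count table whose symbol has the form Serpin, a clade letter from a to i and a number, out of 19780 gene symbols in all. They belong to clades A (14 genes), B (17), C (1), D (1), E (3), F (2), G (1), H (1) and I (2), and no member stood on more than 1 row of the table. Poly(A) RNA of pancreas from wild-type male Sprague-Dawley rats, an outbred strain, 8 weeks old, was sequenced in 3 samples with acute pancreatitis (AP) after intraperitoneal L-arginine and in 3 saline controls. The sample labels give 5 mg/kg L-arginine and 36 hours for the model, whereas the design text gives 2 doses of 2.5 g/kg and collection at 48 hours, and the sources do not settle which applied. Libraries held between 14453584 and 18961353 counts. Values of single libraries are given in the order of replicates 1, 2 and 3. The comparison asks which serpin transcripts differ between AP and control pancreas.

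An inhibitory serpin presents a reactive centre loop that a protease cuts as bait. The cut serpin then refolds and traps the protease in a covalent complex, so that the serpin is used up with its target. Clades A, C, D, E, F and G are mostly secreted and act on the proteases of coagulation, fibrinolysis, complement and inflammation, clade B serpins mostly act inside cells, and a few members, such as the collagen chaperone HSP47 and the secreted factor PEDF, inhibit no protease. In the pancreas, where acinar cells store trypsinogen and other zymogens, pancpin (Serpini2) is an acinar serpin, and mice that lack it develop pancreatic insufficiency.

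In AP pancreas the make-up of the serpin transcripts turned over, from pancpin in controls to HSP47 (Serpinh1). Pancpin and neuroserpin (Serpini1), together with Serpina10 and Serpina11, fell, while the collagen chaperone gene Serpinh1, the C1 inhibitor gene Serping1, the PEDF gene Serpinf1 and the intracellular serpin genes Serpinb8, Serpinb9 and Serpinb10 rose, as did Serpine2 by a small margin. Of the 42 genes, 19 passed the filter on low counts. By edgeR's quasi-likelihood test 8 of these 19 were higher and 7 lower in AP, and 4 were not called. In the same test 64.6% of all 13240 tested genes were called (34.1% higher and 30.5% lower), so calls were common throughout the transcriptome. The groups did not overlap in 14 of the 19 tested members, against 70.9% of all tested genes. The median log2 fold change was 0.01 over the 19 members and 0.07 over all tested genes.

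Directions depend on how the libraries are scaled. The 10 genes of an acinar marker list alone held 361796 to 393252 CPM (reads scaled to a common library size) of all named counts in controls and 6556 to 47782 in AP. Normalised CPM below use TMM scaling, which centres the fold changes on the bulk of the genes. When libraries were scaled by their totals only, all tested genes had a median of 2.25 on the log2 scale, and 92.5% of them were called (88.2% higher and 4.32% lower). On that scale 12 of the 19 tested members were higher and 4 lower. The 8 members called higher and 4 of the 7 called lower kept their call with either scaling. The other lower calls, those of Serpinb1a, Serpinb6a and Serpine3, rest on TMM and are described with both values.

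**Figure D1:**
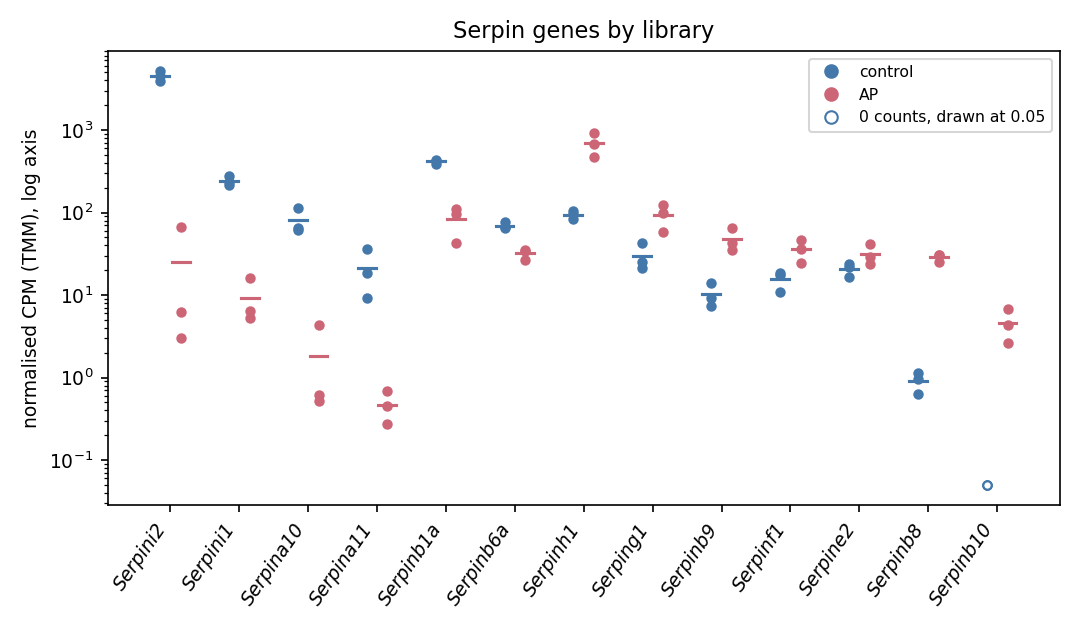
TMM-normalised CPM on a log axis of 13 serpin genes in each of the 3 control (blue) and 3 AP libraries (red), with bars at the group means. Serpini2 sits between 3993 and 5147 in controls and between 3.04 and 66.9 in AP, Serpinh1 moves the other way, and Serpinb10 has no count in any control library.

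Pancpin lost nearly all of its counts in AP. Serpini2 held 36059, 40736 and 24848 counts in the controls and 252, 122 and 2274 counts in the AP libraries. Every AP library lay far below every control library, and AP replicate 3 kept more than the other AP libraries. Its normalised level went from 4539 ± 580 CPM (SD, n = 3) to 25.4 ± 36.0 CPM, a 179-fold fall (log2 fold change -7.48 ± 1.25 SE, adjusted p = 0.000893). The log2 fold change was -9.95 without AP replicate 3 and -5.38 with library totals.

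Acinar markers moved with it. All 10 acinar marker genes fell, with a median log2 fold change of -6.35, and their summed level was 772530 to 826889 normalised CPM in controls and 2931, 3317 and 23950 in the AP libraries. In tissue RNA, fewer cells of a type and less RNA per cell cannot be told apart. A ratio to other transcripts of the same library is a measure that no scaling touches. Serpini2 stood at 13.6, 13.5 and 13.7 counts per 1000 counts of Ctrb1 (chymotrypsinogen B) and Prss1 (a trypsinogen) in the controls, and at 3.35, 1.43 and 4.65 in the AP libraries. All AP values lay below the controls (13.6 ± 0.0916 against 3.15 ± 1.62, two-sided exact permutation p = 0.1, the smallest that 3 against 3 allows).

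The ratio depended on the enzyme. Against the summed 11 acinar serine protease genes of the list it was 8.24, 9.55 and 8.93 in the controls and 2.38, 1.14 and 3.40 in the AP libraries, without overlap. Against single enzymes with counts in every library, the AP values lay below the controls for 7 of 8. The gap was narrow for Cela2a (54.1 to 82.1 in controls and 13.5 to 49.8 in AP). For Prss3 the groups overlapped, with 204, 501 and 3816 in the controls and 206, 184 and 311 in the AP libraries. These further denominators were chosen after the data were seen.

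The bases just upstream of the most strongly lowered genes with a RefSeq promoter entry, and of the raised gene Serpinb10 for contrast, are shown here with capitals at every match to the E-box CANNTG, which the acinar factor PTF1 and other bHLH proteins bind, and to the TATA box TATAAA, on either strand. They are RefSeq sequences of build GRCr8, cut at the first base upstream of the annotated gene, for Serpini2 at chr2:162342876-162343125 (minus strand), Serpina11 at chr6:128677477-128677704 (minus strand) and Serpinb10 at chr13:24067803-24067970 (plus strand).
Serpini2: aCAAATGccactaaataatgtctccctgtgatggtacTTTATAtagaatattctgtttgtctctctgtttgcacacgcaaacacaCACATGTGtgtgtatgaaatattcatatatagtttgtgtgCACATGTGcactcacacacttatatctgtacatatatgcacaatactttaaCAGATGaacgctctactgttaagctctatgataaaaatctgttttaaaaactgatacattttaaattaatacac
Serpina11: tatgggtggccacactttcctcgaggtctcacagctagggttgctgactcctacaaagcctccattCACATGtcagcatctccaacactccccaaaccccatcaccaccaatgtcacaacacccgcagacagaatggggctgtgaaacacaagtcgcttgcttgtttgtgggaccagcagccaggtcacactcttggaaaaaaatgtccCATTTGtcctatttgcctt
Serpinb10: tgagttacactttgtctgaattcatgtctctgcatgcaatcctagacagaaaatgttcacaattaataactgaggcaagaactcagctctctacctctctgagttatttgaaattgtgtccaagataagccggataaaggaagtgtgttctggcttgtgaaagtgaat

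The Serpini2 window of 250 bases held 6 E-box matches, of which 4 overlap in pairs within the 2 runs cacatgtg, and 1 TATA match. The TATA match lay far from the gene start, at position -213, and on the strand opposite to the gene (TTTATA as printed). The Serpina11 window of 228 bases held 2 E-box matches and no TATA match, and the Serpinb10 window of 168 bases held neither. For comparison, the first bases of 33469 promoter entries were searched as windows. An E-box match was in 65.5% at 250 bases, 62.2% at 228 bases and 52.0% at 168 bases, and a TATA match in 12.9%, 12.1% and 8.46%. These windows were not cut at each gene's start. Those of 228 and 168 bases can thus lie farther from the start than the windows shown. The AP-1 motif TGANTCA was in none of the 3 windows, and the heat shock element core GAANNTTC was in that of Serpini2 (1 match, 7.23% of all windows). E-box matches are thus common in such windows, and a match is not a bound site.

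Neuroserpin, an inhibitor of tissue plasminogen activator known from neurons and neuroendocrine cells, fell as well. Serpini1 held 2248, 1737 and 1450 counts in the controls and 262, 210 and 539 in the AP libraries, with no overlap. The log2 fold change was -4.74 ± 0.423 (adjusted p = 2.44e-05), or -5.39 without AP replicate 3 and -2.59 with library totals. Of 8 tested islet markers none rose and 1 fell with TMM, and their summed level was 596 to 1365 normalised CPM in controls and 882 to 1333 in AP. With library totals the sum was 284 to 639 CPM in controls and 1896 to 2660 in AP, without overlap.

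Plat, which encodes the tissue plasminogen activator that neuroserpin inhibits, moved in the opposite direction. It rose from 15 ± 0.775 to 174 ± 17 normalised CPM (log2 fold change 3.53 ± 0.132, adjusted p = 6.84e-07). Per 1000 counts of Plat there were 17841, 15509 and 15263 counts of Serpini1 in the controls and 40.7, 27.2 and 92.7 in the AP libraries (exact permutation p = 0.1). Uncorrected for transcript length, Serpini1 had more counts than Plat in every control library and fewer in every AP library. Serpini1 and Serpini2 lie close together in the RefSeq gene order, with Wdr49 and Pdcd10 between them.

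Within clade A, which holds the classic plasma inhibitors, both tested members fell. Serpina10, the protein Z-dependent inhibitor of coagulation factor Xa, held 924, 490 and 402 counts in the controls and 21, 25 and 148 in the AP libraries. Every AP library lay below the controls, with AP replicate 3 again the highest of the AP group. The log2 fold change was -5.49 ± 0.755 (adjusted p = 0.000287), or -7.13 without AP replicate 3 and -3.35 with library totals. Serpina11 held 294, 145 and 57 counts in the controls and 11, 18 and 23 in the AP libraries. It fell 46.3-fold (-5.53 ± 0.569, adjusted p = 5.3e-05), with -4.89 without control replicate 1, its highest library, and -3.37 with library totals. The summed level of clade A was 48.1 ± 20.2 CPM of all named counts in controls and 5.05 ± 4.57 in AP (exact permutation p = 0.1).

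The other 12 clade A genes had too few counts to be tested. Serpina1, antitrypsin, the main plasma inhibitor of neutrophil elastase, held 8, 4 and 3 counts in controls and 0, 0 and 3 in AP. The ratio of AP to control was 0.0387 with TMM (95% counting interval 0.00718 to 0.137) and 0.175 with library totals (0.0325 to 0.620). All 3 AP counts came from AP replicate 3, without which Serpina1 was at least 18.3-fold lower with TMM. Serpina6, the corticosteroid-binding globulin, had 2 control and 14 AP counts, 12 of them in AP replicate 2, and the interval of its ratio spanned equality (1.35, interval 0.311 to 12.3), although with library totals the ratio was 6.14 (1.41 to 55.6). Without AP replicate 2 the TMM ratio of Serpina6 was 0.297 (0.0215 to 4.10). Serpina3n, an acute-phase inhibitor in rodents, and Serpina16 had 1 count each, in AP replicate 2. Serpina3c, Serpina3m, Serpina4, Serpina5, Serpina7, Serpina9, Serpina12 and Serpina1f had none in any library.

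Serpinh1 took the place of Serpini2 as the serpin with the largest share of counts, uncorrected for transcript length. HSP47, which Serpinh1 encodes, resides in the endoplasmic reticulum and binds procollagen as it folds. It held 836, 755 and 527 counts in the controls and 27794, 36884 and 15881 in the AP libraries. Each AP library held many times the counts of any control, and AP replicate 3 was the lowest of the AP group. The normalised level rose from 94.6 ± 9.57 to 690 ± 225 CPM, 7.29-fold (log2 fold change 2.87 ± 0.259, adjusted p = 2.59e-05), and 33.3-fold with library totals.

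Serpinh1 rose alongside the collagens that it helps to fold. Of 20 tested genes of collagen chains and of their folding, 15 rose and 3 fell, with a median log2 fold change of 2.20. Over all tested genes 34.1% were higher and 30.5% lower. Those that rose were every listed collagen chain gene and P4ha1, P4ha3, Plod1, Plod2, Fkbp10 and P3h1. P4ha2 and Plod3 were not called. With library totals 19 rose and none fell, where 88.2% of all tested genes were higher and 4.32% lower. The lysyl hydroxylase genes Plod2 (3.66 ± 0.201, adjusted p = 2.24e-06) and Plod1 (2.57 ± 0.215, adjusted p = 1.71e-05) and the basement membrane collagen gene Col4a2 (1.75 ± 0.149, adjusted p = 1.91e-05) had the lowest p. The 3 that fell with TMM were P4hb, Ppib and Mia3, which stood at 0.29, 0.81 and 0.92 with library totals.

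Relative to the summed counts of Col1a1, Col1a2 and Col3a1 in the same library, Serpinh1 did not differ beyond the spread between libraries. It stood at 101, 118 and 91.4 counts per 1000 counts of Col1a1, Col1a2 and Col3a1 in the controls and at 121, 110 and 138 in the AP libraries. The groups overlapped (103 ± 13.6 against 123 ± 13.8, exact permutation p = 0.2). This holds for the sum only, since the collagens rose unequally. Their log2 fold changes were 3.48 (Col1a1), 3.03 (Col1a2) and 2.22 (Col3a1), on both sides of 2.87 for Serpinh1. Ratios to single collagens were not tested. Fibroblast and stellate cell markers, of which 8 of 10 rose, had a summed level of 1129 to 1467 normalised CPM in controls and 4026 to 9289 in AP. Their part in the rise of Serpinh1 was not tested.

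**Figure D2:**
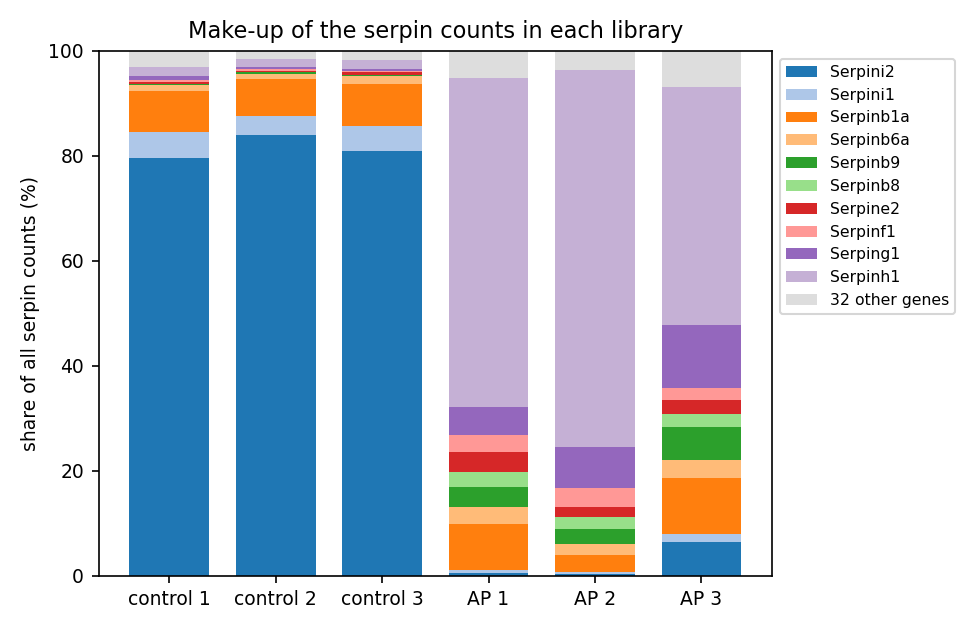
Share of all serpin counts taken by each gene in the 6 libraries, in percent, not corrected for transcript length. Serpini2 takes 79.6% to 84.0% in controls, and Serpinh1 takes 45.3% to 71.8% in AP, with more Serpini2, Serpinb1a and Serping1 in AP replicate 3 than in the other AP libraries.

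The family as a whole took about the same share of the counts in both groups. All 42 genes together held 2633, 2914 and 2300 CPM of all named counts in the controls and 2447, 2748 and 2060 in the AP libraries. The groups overlapped (2616 ± 307 against 2418 ± 345, exact permutation p = 0.5). Serpini2 took 79.6%, 84.0% and 81.0% of the serpin counts in the controls and 0.568%, 0.237% and 6.48% in the AP libraries. Serpinh1 took 1.85%, 1.56% and 1.72% in controls and 62.6%, 71.8% and 45.3% in AP. Without Serpini2 the other 41 genes held 480 ± 50.6 CPM of all named counts in controls and 2367 ± 412 in AP (exact permutation p = 0.1). On the TMM scale the order differs, with 5560 ± 600 against 1135 ± 128 normalised CPM for the whole family (p = 0.1) and 1021 ± 109 against 1109 ± 156 without Serpini2 (p = 0.6, both exact permutation tests).

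Plasmin, which dissolves fibrin, is released from plasminogen by the activators Plat and Plau. Of 7 tested genes listed for the plasminogen system, 6 rose and none fell, beside 34.1% higher and 30.5% lower over all tested genes. The median was 3.33, and the exception was Plgrkt. The 6 include Tmprss6, a membrane protease gene known from iron control rather than from plasminogen activation. It had few counts (1, 1 and 2 in controls and 30, 31 and 16 in AP). The listed genes with the lowest p were Anxa2 (4.04 ± 0.136), a subunit of a cell-surface plasminogen receptor, Plat (above) and Plaur, the urokinase receptor gene (4.46 ± 0.230, adjusted p = 1.79e-06). Plau, the urokinase gene, rose by less (1.79 ± 0.211, adjusted p = 0.000117). Plg, which encodes plasminogen and is made mainly by the liver, had 1, 0 and 0 counts in controls and 1, 2 and 7 in AP.

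Serpinb2, a clade B gene, had no control count and 17, 3 and 7 AP counts, at least 1.74-fold higher with TMM and at least 7.89-fold with library totals, against a floor of 3 counts over the control group. The TMM bound was 1.11 and 1.12 without control replicates 1 and 2, and 0.997 without AP replicate 1, which no longer gives a direction. Serpinf2, which encodes the plasmin inhibitor alpha-2-antiplasmin, stood at 1.01 ± 0.325 normalised CPM in controls and 1.15 ± 0.316 in AP (log2 fold change 0.17 ± 0.431, adjusted p = 0.749), and was called higher with library totals (2.32, adjusted p = 0.000618).

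**Figure D3:**
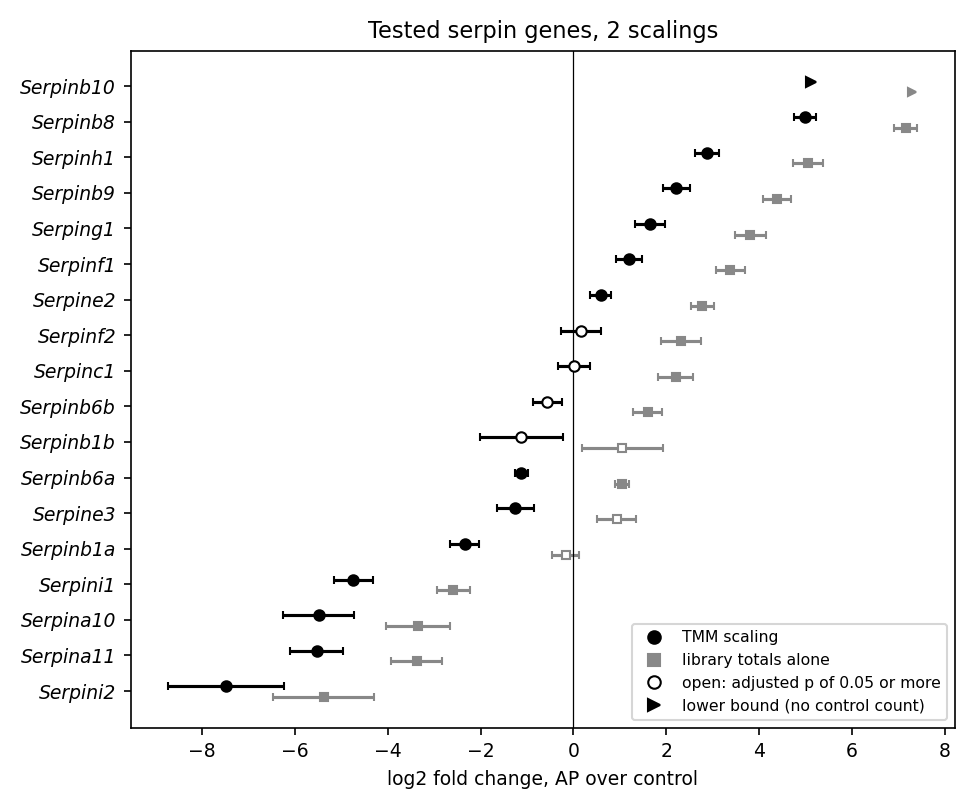
Log2 fold change of AP over control with standard errors for 18 of the 19 tested serpin genes, with TMM scaling (black circles) and with library totals alone (grey squares). Open symbols mark an adjusted p of 0.05 or more and triangles are lower bounds for Serpinb10. The grey series lies to the right of the black one throughout, and Serpinb6a, Serpinb6b, Serpinb1b and Serpine3 lie on different sides of 0.

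Protease nexin-1, encoded by Serpine2, inhibits thrombin and urokinase at cell surfaces. Serpine2 held 177, 132 and 150 counts in the controls and 1680, 963 and 974 in the AP libraries. On the normalised scale the highest control library (24.1 CPM) lay above the lowest AP library (24.0 CPM). Its call was marginal (log2 fold change 0.59 ± 0.228, adjusted p = 0.0494). The call ended without any 1 of the control libraries or without AP replicate 1 or 3 (adjusted p of 0.0559 to 0.173), with limma-voom (adjusted p = 0.1), with DESeq2 size factors (0.0527), with upper quartile scaling (0.0546) and with the filter of 50 counts in 3 samples (0.0578), and was kept in 5 of 14 alternatives. Serpine3 held 19, 11 and 11 control counts and 41, 24 and 24 AP counts. It was called lower with TMM (-1.25 ± 0.398, adjusted p = 0.023), was at 0.93 and not called with library totals, and lost its call without control replicate 1 or 3 or AP replicate 2 or 3 (adjusted p of 0.0527 to 0.104).

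Among the serpins of coagulation, antithrombin (Serpinc1), the main inhibitor of thrombin and factor Xa, did not pass the test. Serpinc1 held 21, 26 and 12 counts in the controls and 140, 99 and 69 in the AP libraries. In normalised CPM these were 2.61 ± 0.678 and 2.65 ± 0.729, with overlap (log2 fold change 0.01 ± 0.338, adjusted p = 0.975), but with library totals the gene was called higher (2.20, adjusted p = 0.000357), close to the median of all genes on that scale. Serpind1, heparin cofactor II, had no count in any library. Of 17 tested coagulation genes, 13 rose and 2 fell, with a median of 1.24, beside 34.1% higher and 30.5% lower over all tested genes. F5, the gene of a cofactor in thrombin formation, rose by 5.65 ± 0.361 (adjusted p = 4.24e-06) and F2r, a thrombin receptor gene, by 2.45 ± 0.252 (adjusted p = 5.3e-05). The genes that fell were Proc, protein C (-6.36 ± 0.663, adjusted p = 5.76e-05, or -5.75 without AP replicate 2 and -7.48 without AP replicate 3), and F2, prothrombin (-5.64 ± 0.982, adjusted p = 0.0011, or -9.02 without AP replicate 3, which held 71 of its AP counts against 3 and 2 in the others).

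C1 inhibitor, the product of Serping1, blocks the C1r and C1s proteases of classical complement and plasma kallikrein. Serping1 held 344, 198 and 133 counts in the controls and 2338, 4008 and 4183 in the AP libraries. The lowest AP library, AP replicate 1, was still above all controls after scaling (57.7 against 42.7 normalised CPM). The gene rose 3.13-fold (log2 fold change 1.65 ± 0.328, adjusted p = 0.0023), and 14.0-fold with library totals.

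Of 10 tested genes of a list for kinins and complement, 8 rose and 2 fell with TMM, with a median of 1.58. Over all tested genes 34.1% were higher and 30.5% lower. Those that rose were the kinin receptor gene Bdkrb2 and the classical complement genes C1qa, C1qb, C1qc, C1r, C1s, C4a and C4b. No listed kallikrein or kininogen gene was tested. With library totals 8 rose and none fell, where 88.2% of all tested genes were higher and 4.32% lower. C1r (1.99 ± 0.210, adjusted p = 6.28e-05), C1qa (1.87 ± 0.220, adjusted p = 0.000114) and C1qb (1.97 ± 0.250, adjusted p = 0.000182) had the lowest p. The genes lower with TMM were those of the lectin pathway proteases, Masp1 (-2.11, or -1.33 without control replicate 1) and Masp2 (-1.68). They stood at 0.08 and 0.50 with library totals and were not called. Against its targets Serping1 did not differ detectably. There were 386, 286 and 172 counts of Serping1 per 1000 counts of C1r and C1s in the controls and 218, 204 and 346 in the AP libraries, with full overlap (exact permutation p = 0.8). The plasma kallikrein gene Klkb1 had no count in any library.

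**Figure D4:**
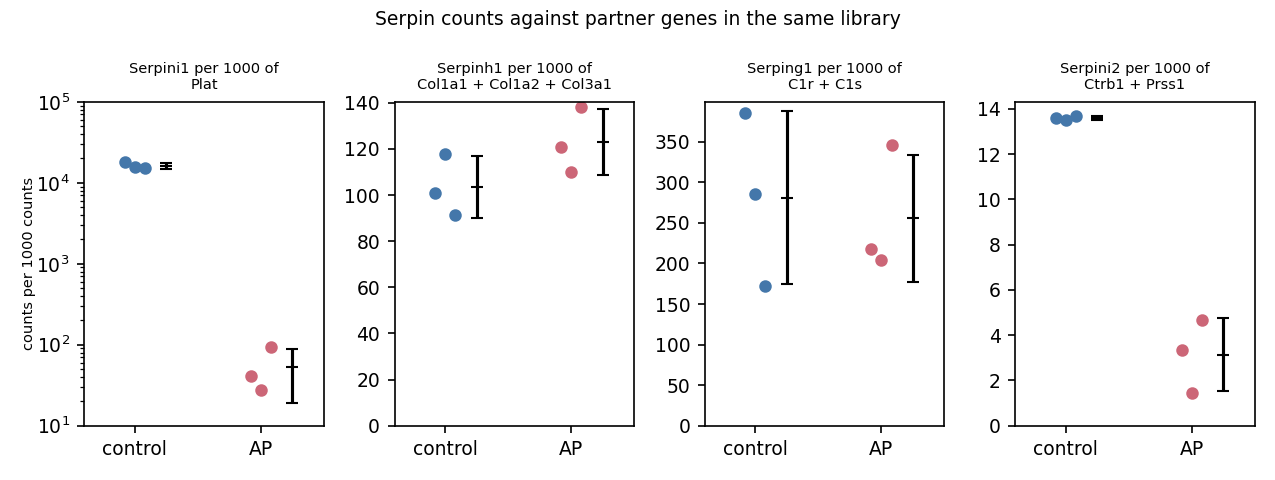
Counts of a serpin gene per 1000 counts of partner genes in the same library, for 3 control (blue) and 3 AP libraries (red), with the mean and SD beside them (the Serpini1 panel has a log axis). Serpini1 and Serpini2 fall behind their partners, and the groups overlap for Serpinh1 against the summed collagens and Serping1 against C1r and C1s.

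These 4 ratios were chosen after the values had been seen, and the Benjamini-Hochberg adjusted p over the 4 was 0.2 for the ratios of Serpini1 and Serpini2, 0.267 for that of Serpinh1 and 0.8 for that of Serping1.

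PEDF, the product of Serpinf1, is a secreted member that inhibits no protease and restrains vessel growth. Serpinf1 held 141, 146 and 67 counts in the controls and 1469, 1887 and 824 in the AP libraries. Control replicate 3 and AP replicate 3 were the lowest of their groups, and the groups did not overlap after scaling. The gene rose from 15.6 ± 4.19 to 35.8 ± 11.4 normalised CPM (log2 fold change 1.19 ± 0.277, adjusted p = 0.00525). Serpinf2, which lies next to it in the RefSeq gene order, was not called with TMM. Of 8 tested endothelial markers 3 rose and 1 fell with TMM, beside 34.1% higher and 30.5% lower over all tested genes. Their summed level was 189 to 239 normalised CPM in controls and 269 to 285 in AP. With library totals it was 89.8 to 112 CPM in controls and 536 to 622 in AP.

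Of the 7 tested intracellular serpins of clade B, 3 were higher, 2 lower and 2 not called with TMM, beside 34.1% higher and 30.5% lower over all tested genes. With library totals 5 were higher, none lower and 2 not called, beside 88.2% higher and 4.32% lower over all tested genes. Serpinb8, known to inhibit furin, held 9, 5 and 6 counts in the controls and 1242, 1232 and 852 in the AP libraries. The AP libraries agreed closely with one another and lay far above the controls. It rose from 0.904 ± 0.248 to 28.8 ± 3.22 normalised CPM (log2 fold change 4.99 ± 0.231, adjusted p = 1.18e-06), and 143-fold with library totals.

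Serpinb10, bomapin, a serpin of blood-forming and myeloid cells, had no count in any control library and 274, 176 and 90 in the AP libraries. It was at least 34.8-fold higher with TMM (adjusted p = 0.000537), or at least 22.2-fold and 22.4-fold without control replicates 1 and 2, and at least 158-fold higher with library totals, each against a floor of 3 counts over the control group. Serpinb2, Serpinb10 and Serpinb8 are consecutive protein-coding genes in the RefSeq order, and all 3 had higher counts in every AP library than in any control library. Serpinb7, the neighbour on the other side of Serpinb2, had 1 count in each group.

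Serpinb9, which inhibits granzyme B and so guards cells against the granules of cytotoxic lymphocytes, held 60, 111 and 58 counts in the controls and 1755, 1401 and 2219 in the AP libraries. The groups did not overlap. It rose 4.64-fold (log2 fold change 2.22 ± 0.297, adjusted p = 0.000245), and 20.8-fold with library totals.

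Leukocyte markers rose in the same libraries as these genes. All 10 monocyte and macrophage markers rose, from a summed 166 to 197 normalised CPM in controls to 5531 to 5703 in AP. All 6 tested neutrophil markers rose (2.48 to 11.2 in controls, 127 to 177 in AP), as did 6 of 7 tested lymphocyte and natural killer cell markers (1.93 to 8.59 and 64.9 to 212). Platelet markers, 2 of 3 tested of which rose, summed to 2.36 to 2.91 and 12.7 to 17.8. The part of these cells in the rises of Serpinb8, Serpinb9 and Serpinb10 was not tested.

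Serpinb1a encodes an inhibitor of neutrophil elastase, cathepsin G and proteinase 3, and its counts changed little in absolute number. It held 3500, 3368 and 2447 counts in the controls and 3881, 1729 and 3689 in the AP libraries. AP replicate 2 was the lowest of all libraries. With TMM it fell 5.07-fold (log2 fold change -2.34 ± 0.314, adjusted p = 0.000248), whereas with library totals it was at -0.17 and not called (adjusted p = 0.576). Serpinb6a, which encodes a cytoplasmic inhibitor of cathepsin G and trypsin-like proteases, held 528, 528 and 478 counts in controls and 1382, 1062 and 1202 in AP, and was called lower with TMM (-1.12 ± 0.143, adjusted p = 0.00018) and higher with library totals (1.05, adjusted p = 9.87e-05).

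Their close relatives Serpinb6b (66, 61 and 26 control counts and 143, 174 and 199 AP counts) and Serpinb1b (21, 3 and 1 and 11, 37 and 10) were not called with TMM. Serpinb6b was at -0.56 ± 0.314 (adjusted p = 0.146), was called lower without control replicate 3 (-0.80, adjusted p = 0.0436) and was called higher with library totals (1.60, adjusted p = 0.000879). Serpinb1b was at -1.12 ± 0.888 (adjusted p = 0.295), at 0.82 without control replicate 1 and at 1.05 with library totals, called in neither. Reads of such related genes may have been split between copies or lost in counting, so the values of Serpinb1a, Serpinb1b, Serpinb6a, Serpinb6b, Serpinb9 and Serpinb9d are uncertain in that respect. Serpinb9, Serpinb6b and Serpinb1a are consecutive genes in the RefSeq order and moved apart, with Serpinb9 higher, Serpinb6b not called and Serpinb1a lower with TMM.

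The remaining 10 clade B genes were not tested. Serpinb13 had 8 and 2 counts in control replicates 2 and 3 and none in control replicate 1 or in AP, at least 17.2-fold lower with TMM and at least 3.80-fold with library totals against a floor of 3 counts over the AP group. Without control replicate 2 no more than 2 control counts were left and no fold is given. Without 1 of the AP libraries the TMM bound was 11.1 to 12.2, and without control replicate 1 it was 27.0. Serpinb5, maspin, had 3 and 1 counts in AP replicates 1 and 3, Serpinb11 had 2 in AP replicate 3, and Serpinb9d had 2 in control replicate 1. Serpinb3, Serpinb3a, Serpinb6e and Serpinb12 had no count in any library. Of all 42 genes, 13 had no count anywhere, which allows at most 0.16 to 0.225 CPM of all named counts in a library, the level of 3 counts. That limit covers counted reads only, since reads shared by related genes may have been lost in counting.

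Serpins directed at leukocytes meet granule and lysosomal proteases. Of 14 listed granule proteases of leukocytes and mast cells, 10 were measured under the listed symbol, and the others, granzyme B among them, were not analysed here. Of the 10, 5 had too few counts to be tested, and 2 of the 5 tested rose, Gzmm (2.61 ± 0.555, adjusted p = 0.00331, and 0.052 with limma-voom) and the mast cell chymase gene Cma1 (3.98 ± 0.865, adjusted p = 0.0037, or 3.38 without control replicate 2, with all of its control counts in control replicate 1). Gzmk was at 1.93 ± 1.02 (adjusted p = 0.128), and was called without AP replicate 1 (2.42, adjusted p = 0.0379) and with library totals (4.04). Elane, neutrophil elastase, had no control count and 7, 2 and 2 AP counts, Ctsg 1 count in all, in AP replicate 3, and Prtn3 none. Of the 8 lysosomal cysteine proteases 7 rose (median 1.69), among them Ctss (4.17 ± 0.162), Ctsz (4.57 ± 0.183) and Ctsb (2.79 ± 0.227), with adjusted p of 6.85e-07, 7.31e-07 and 1.47e-05. Both lists stand beside 34.1% higher and 30.5% lower over all tested genes.

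The acinar serine proteases fell with Serpini2. Of 9 tested trypsins, chymotrypsins and elastases 8 fell and none rose, with a median of -6.03, where 30.5% of all tested genes were lower and 34.1% higher. Ctrc (-6.43 ± 0.994, adjusted p = 0.000564), Cela2a (-6.89 ± 1.07, adjusted p = 0.000582) and Cela3b (-6.25 ± 1.17, adjusted p = 0.00167) had the lowest p. Without AP replicate 3 they stood at -7.99, -8.39 and -8.36, where Serpini2 stood at -9.95. The exception was Try10. With library totals 7 fell and none rose (median -3.92), where 4.32% of all tested genes were lower and 88.2% higher. Try5 (-2.25) was then not called either.

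Of 17 tested inhibitors outside the serpin family, 8 were higher, 7 lower and 2 not called (median 0.34). Over all tested genes 34.1% were higher and 30.5% lower. With library totals 13 of these inhibitors were higher and 3 lower, beside 88.2% higher and 4.32% lower over all tested genes. Timp1, an inhibitor of matrix metalloproteinases, rose by 5.88 ± 0.271 (adjusted p = 1.16e-06), Slpi, which encodes an inhibitor of leukocyte elastase, by 7.33 ± 0.390 (adjusted p = 1.96e-06, or 8.05 without control replicate 1), and Cstb, cystatin B, by 2.22 ± 0.178 (adjusted p = 1.36e-05). The acinar trypsin inhibitor gene Spink1 fell by 4.41 ± 1.05 (adjusted p = 0.00602, or by 6.74 without AP replicate 3), and the plasma inhibitor gene A2m rose by 4.66 ± 0.648 (adjusted p = 0.000309, or 5.95 without control replicate 1).

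Markers of other cells were also compared between the groups. Mesothelial markers, 5 of 5 tested of which rose, summed to 18.8 to 57.1 normalised CPM in controls and 124 to 182 in AP, with Krt5 at 0. Squamous epithelial markers, 2 of 2 tested of which rose, had no control count and summed to 20.6 to 33.1 in AP, with Krt5 and Ivl at 0. With TMM the ranges of controls and AP overlapped for duct (439 to 483 and 201 to 460), hepatocyte (329 to 408 and 310 to 476), mast cell (12.5 to 32.0 and 6.21 to 13.7) and adipocyte markers (264 to 355 and 93.5 to 268). With library totals AP lay above the controls for duct (432 to 918 CPM against 209 to 225), hepatocyte (618 to 1064 against 154 to 191) and adipocyte markers (209 to 576 against 124 to 165), and mast cell markers still overlapped (12.4 to 29.4 and 5.87 to 14.9). With TMM 2 of 7 tested duct markers rose and 2 fell, 3 of 6 hepatocyte markers rose and 1 fell, 1 of 3 mast cell markers rose and 1 fell, and 3 of 5 adipocyte markers rose and 1 fell. The liver gene Serpina1 was left out of the hepatocyte list, since it is a serpin.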

How the data were processed

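Bulk RNA sequencing of 6 pancreas samples was analysed from the deposited table of whole-number counts of reads per gene. Per the submitters' processing notes, the authors used FastQC, STAR, featureCounts and DESeq2 with build mRatBN7.2. Not given in the sources used here are their versions, the annotation, whether strand was used and how multi-mapping reads were handled. Rows without a gene name (3110 of 23096, holding 5.48% to 7.69% of control and 1.41% to 2.10% of AP counts) were left out, and rows that share a symbol were summed.

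All named genes were fitted with edgeR's quasi-likelihood test (edgeR 4.0.16, R 4.3.3), TMM scaling, edgeR's default filter and Benjamini-Hochberg adjustment, called at 0.05, without a covariate. Standard errors were derived from each fold change and its F statistic. TMM multiplied library sizes by 0.470 in controls and by 2.13 in AP. Shares and ratios were compared with two-sided exact permutation tests. Intervals and floors cover counting error only. Nothing in the labels states that every sample is its own animal, so the spread behind the p-values may be technical. Libraries within a group differed beyond sampling noise. The fits were tested on simulated data in which few genes changed, as many up as down, without a shift in make-up between the groups. That setting is unlike these data, so it does not show how the fits perform here.

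The serpins, 8 lists of partner genes and 14 marker lists were chosen with earlier results of these data known. From each partner list the 3 tested genes with the lowest p are named, and other partner genes and the 4 ratios were picked after their values were seen. The values of 1 tested serpin gene are not reported here, though it stays in the family counts. Promoters (34 of the 42 genes) and gene order (all 42) come from RefSeq, build GRCr8. Alternatives were scaling by library totals, upper quartiles or DESeq2 size factors, a Wald test (DESeq2 1.42.0), limma-voom (limma 3.58.1), other filters (none, and 50 counts in 3 samples), a replicate block and each library left out.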

Additional observations from a re-analysis of the deposited data

How the results depend on the processing

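Most results kept their direction and their side of the threshold, and the scaling mattered most. With library totals 4 members were called lower in place of 7, and of all tested genes 11680 were called higher and 572 lower in place of 4520 and 4032. The AP minus control difference of the family's summed level was -197 CPM of all named counts, -4425 normalised CPM with TMM-scaled library sizes, and 1887 CPM without Serpini2. Log2 fold changes of members whose sign turned with library totals were those of Serpinb1b (1.05), Serpinb6a (1.05), Serpinb6b (1.60) and Serpine3 (0.93). Among partner genes the sign turned for Masp1 (0.08), Masp2 (0.50), P4hb (0.29), Ppib (0.81) and Mia3 (0.92). It also turned for Spint1 (1.12), Cst3 (1.34) and Timp3 (1.10), called lower with TMM and higher with library totals. Ctsl (1.81), P4ha2 (2.17) and Cpa3 (1.66), not called with TMM, turned as well. Serpinc1, near 0 with TMM, turned to -0.00 with DESeq2 size factors, -0.01 with limma-voom and -0.01 with the filter of 50 counts. The turns with library totals go with a shift of all tested genes, whose median was 0.07 with TMM and 2.25 with library totals. TMM had multiplied library sizes by 0.47 in controls and by 2.13 in AP. Why the make-up of the libraries differs was not tested.

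With 1 library left out, 7 to 8 members were called higher and 6 to 7 lower, and the summed difference ran from -362 to -17.7 CPM. Among members not called, Serpinb1b then ran from -1.92 to 0.82, Serpinc1 from -0.22 to 0.22 and Serpinf2 from -0.04 to 0.38. The deviations of same-numbered control and AP libraries from their group means correlated at -0.0286, 0.0325 and -0.107. Those of differently numbered libraries correlated at -0.115 to 0.137. With so few libraries these values cannot decide whether same-numbered samples were paired. With the replicate block 8 members were called higher and 7 lower, and 4200 and 3704 of all tested genes. Of the 42 genes 23 were untested, 13 of them with no count and 10 with at most 17 counts in a library, so differences in these were mostly not detectable at this depth.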
